A study of Mus musculus with 6 samples.

Results

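The Nos2 locus is taken here as the stretch of chromosome 11 from 78.77 to 78.90 Mb around Nos2, the gene of inducible nitric oxide synthase. Its sites were picked by position alone, but the locus itself was chosen with earlier results of these data known. The locus holds 15 of the 62236 sites at which the co-repressor CTBP2 was measured by chromatin immunoprecipitation and sequencing. The cells were mouse bone marrow-derived macrophages, grown from the marrow of wild-type male C57BL6/N mice aged 6 to 12 weeks and differentiated in L929-conditioned medium until day 6. In 3 libraries the macrophages had received only PBS, the vehicle, and in the other 3 lipopolysaccharide (LPS), which comes from the outer membrane of bacteria, at 100 ng/ml, both for 3 h. Replicates carry numbers in the labels, with no word on separate animals or cultures, so the p-values reflect library-to-library spread that may be technical. Input chromatin was not analysed here, and binding of 1 factor does not measure expression of the gene it binds.

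Inducible nitric oxide synthase makes nitric oxide from arginine, with tetrahydrobiopterin as a cofactor. In resting macrophages Nos2 is nearly silent, and after LPS it is switched on by NF-kB together with interferon signalling, at a promoter and at enhancers upstream. CTBP2 does not read DNA sequence itself. It is brought to chromatin by DNA-binding partners and in turn recruits enzymes that modify histones, and it is best known as a repressor of transcription.

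The site positions are printed as the deposited table gives them and are taken as GRCm39, while the genes that the table names lie on GRCm38 positions. Of the 15 sites 12 are named Lyrm9 in the table, 3 Ccnq and 0 Nos2. The offset between the coordinates was measured inside the table, as a shift that lines up gene starts with sites. In the stretch around Nos2 a shift of -109.25 kb put a site within 500 bp of 447 of 629 gene starts, against 57 with no shift. It placed the Nos2 start 13 bp from the centre of 1 site (chromosome 11, 78811050 to 78812050), and that of Lgals9, the next gene, 133 bp from the centre of another (78875329 to 78876329). Lgals9 encodes galectin-9, a lectin that binds galactosides, and runs towards Nos2 from the opposite side. Of the other 13 sites, 5 lay upstream of Nos2, 5 inside it, 1 between the genes and 2 inside Lgals9. No gene model of the build of the sites was used, so exons and introns are not told apart. All 15 sites are 1001 bp wide, so their levels can be compared with each other.

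The motif search was planned for the Nos2 promoter, but the sequences used here held no window for Nos2, so its letters were not searched. The sequence at the start of Lgals9 is shown instead, because the site there had the highest CTBP2 signal of the locus in both groups. It is the RefSeq window of 300 bases on the minus strand of GRCm38.p6, chr11:78984875-78985174, a build other than that of the sites, printed 5′ to 3′ with motif matches in capitals.
Lgals9 promoter: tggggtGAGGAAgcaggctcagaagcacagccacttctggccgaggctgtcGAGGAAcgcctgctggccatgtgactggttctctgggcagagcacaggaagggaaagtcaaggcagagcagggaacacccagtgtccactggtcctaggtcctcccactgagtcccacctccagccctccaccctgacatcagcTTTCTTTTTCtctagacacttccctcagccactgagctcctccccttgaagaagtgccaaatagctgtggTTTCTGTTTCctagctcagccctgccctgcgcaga
The interferon response element, searched as GAAA, any 2 bases and GAAA again, was found 2 times, in the reverse direction, with first bases at -55 and 16 relative to the gene start. They occur on either strand in 3.44% of the 32851 RefSeq windows of this length. The PU.1 core letters GAGGAA were found 2 times, at -244 and -199, and occur in 28.3% of windows. The letters searched on both strands with no match were the NF-kB consensus (in 8.46% of windows), AP-1 TGANTCA, C/EBP TTNNGNAA, GAS TTCNNNGAA, octamer ATTTGCAT, TATA box TATAAA, ZEB E-box CAGGTG and HIF ACGTG. A match is a description of letters and not a measured binding site.

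The deposited columns hold a normalised signal per site and library, and their medians over all sites differed between libraries, from 35.5 to 73.0. Each column was therefore divided by its median and multiplied by the geometric mean of the 6 medians, 46.9, and every value below is on this median-scaled scale unless named as deposited. A change shared by most sites would be removed by this. If the smallest step of a column is 1 read, the libraries held 3243261 to 4553179 reads in sites, and a site of the locus held 5 to 196 reads in a library. All read numbers below rest on this reading of the step, which was not accepted as recovered counts. Each site was tested by limma on log2(value + 1), with Benjamini-Hochberg adjustment over all 62236 sites, and called at an adjusted p under 0.05. Folds are on that scale, so changes at low sites are understated. Of all sites, 16.1% were called higher in LPS and 13.5% lower.

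CTBP2 signal rose across the Nos2 locus after LPS. Of the 15 sites 10 were called higher and 0 lower, and the mean of the LPS libraries was above that of the vehicle libraries at all 15. By limma 0 of the 15 were lower at an unadjusted p under 0.05 either. The median log2 fold was 1.32 over the locus and -0.02 over all sites. At 13 of the 15 sites the lowest LPS library exceeded the highest vehicle library, which held for 21.6% of all sites, and at 0 of 15 the reverse held, against 20.6% of all sites. Before LPS most sites of the locus carried little CTBP2. The median of the vehicle means was 22.9 over the locus, against 46.5 over all sites, and after LPS the medians were 52.0 and 46.4. The Lgals9 start and the site 4.09 kb upstream of Nos2 were exceptions, with vehicle means of 112 and 64.2. In which libraries peaks were called is not stated in the sources used here. A site low in vehicle may be listed only through its LPS signal, which would favour a rise there. This was not tested. Summed over the 15 sites, the signal was 531, 455 and 468 in the vehicle libraries and 909, 940 and 1034 in the LPS libraries. The groups did not overlap. The log2 sums differed by 0.99 (two-sided exact permutation p = 0.1, the smallest that 3 against 3 libraries can give).

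**Figure D1:**
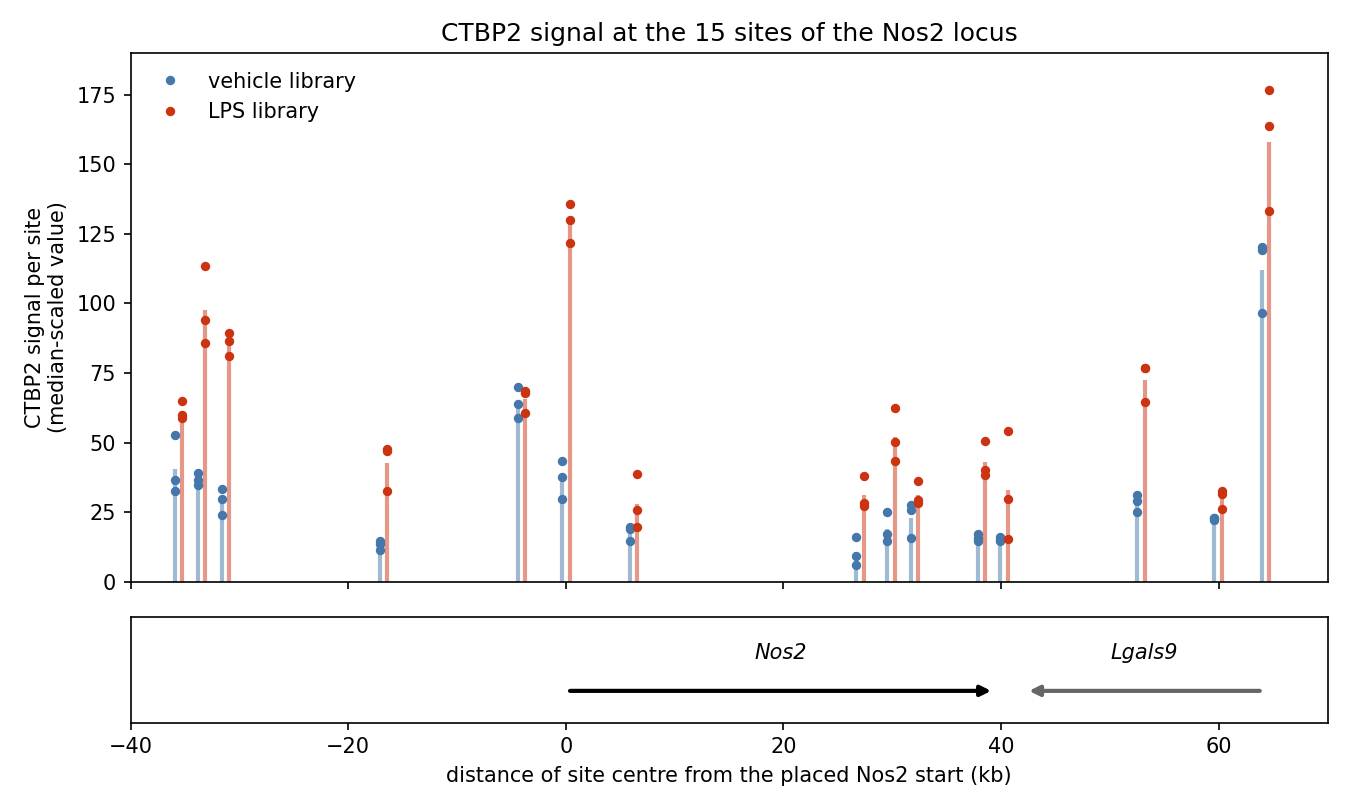
CTBP2 signal (median-scaled value, y axis) at the 15 sites, placed by the distance of the site centre from the placed Nos2 start in kb (x axis). Points are libraries, with the groups moved slightly apart sideways, bars start at 0 and end at the mean of 3 libraries, and arrows show Nos2 and Lgals9 in the direction of transcription. The LPS libraries stand far above the vehicle libraries at the Nos2 start (129 against 37.0 on average), and the groups overlap at the site 4.09 kb upstream.

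With all 6 libraries, the largest log2 fold of the locus was at the start of Nos2. Without vehicle replicate 1 the site 27.0 kb into the gene had a larger one, 1.91 against 1.82. The site at the Nos2 start read 37.8, 29.9 and 43.3 in vehicle (replicates 1 to 3, an order kept below) and 130, 136 and 122 in LPS. The LPS libraries all lay above the vehicle libraries, and the spread within each group was small beside the gap. The mean went from 37.0 ± 6.76 to 129 ± 6.95 (SD, n = 3 each), which is 1.79 on the log2 scale (SE 0.17; adjusted p by limma 5.77e-10). The values rest on 33, 35 and 36 reads in the vehicle libraries and on 119, 159 and 135 in the LPS libraries. Within the locus the Nos2 start went from the 4th highest mean in vehicle to the 2nd in LPS, and from 7.64% to 13.5% of the summed signal. In vehicle its mean was within the spread of the sites 35.6 and 33.5 kb upstream, at 40.6 ± 10.6 and 36.8 ± 2.02 (SD, n = 3 each). In LPS its nearest neighbours in the order of means were the Lgals9 start, at 158 ± 22.5, and the site 33.5 kb upstream, at 97.7 ± 14.3 (SD, n = 3 each). The LPS values of the Nos2 start lay above all those of the latter, and its highest value overlapped the lowest of the Lgals9 start.

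Among sites within 1 kb of a placed gene start, the Nos2 start was low before LPS and high after. There were 6580 such sites, of which 9.19% were called higher in LPS and 4.5% lower. The vehicle mean of the Nos2 start lay above 3.18% of them, its LPS mean above 80.5%, and its log2 fold above 99.8%. The median gene start had 88.1 in vehicle and 89.2 in LPS.

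Upstream of Nos2, 4 of 5 sites rose, and the nearest to the gene was the one that did not. Of a cluster of 3 sites within 5 kb of each other, the one 33.5 kb upstream (78777540 to 78778540) had 38.9, 36.7 and 34.9 in vehicle and 93.9, 113 and 85.7 in LPS. Its log2 fold was 1.37 with SE 0.17 (limma, adjusted p = 1.61e-07). The one 31.3 kb upstream (78779743 to 78780743) had 33.2, 29.9 and 24.1 in vehicle and 89.5, 81.1 and 86.6 in LPS, a log2 fold of 1.54 with SE 0.18 (limma, adjusted p = 5.34e-08). At both the groups were far apart. The outermost site of the cluster, 35.6 kb upstream (78775423 to 78776423), changed less, with 52.7, 36.7 and 32.5 in vehicle and 60.04, 64.9 and 58.7 in LPS. Its log2 fold was 0.61 with SE 0.19 (limma, adjusted p = 0.0141), and the call was lost without vehicle replicate 2, vehicle replicate 3 or LPS replicate 2, with log2 folds of 0.47 to 0.57.

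Closer to the gene, the site 16.8 kb upstream (78794259 to 78795259) was among the least bound of the table before LPS, at the 0.459th percentile of vehicle means. It may be listed only through its LPS signal, and its rise would then be partly fixed by the listing. It had 11.4, 13.6 and 14.4 in vehicle and 32.7, 47.8 and 46.9 in LPS, a log2 fold of 1.60 with SE 0.29 (limma, adjusted p = 5.62e-05). The site 4.09 kb upstream (78806950 to 78807950) had 69.8, 58.9 and 63.8 in vehicle and 67.7, 60.6 and 68.6 in LPS. The libraries of the groups were intermingled there, although the site had the 2nd highest vehicle mean of the locus and 53 to 76 reads in every library. Its log2 fold was 0.03 (95% interval -0.30 to 0.37, limma adjusted p = 0.905), so that a rise as large as that of the Nos2 start, 1.79, lies outside the interval.

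Inside Nos2, 3 of 5 sites rose, all of them in its distal part. The site 27.0 kb into the gene (78838059 to 78839059) was the least bound of the locus before LPS, with 16.0, 9.38 and 6.02 in vehicle and 28.4, 27.3 and 37.9 in LPS. Its log2 fold was 1.57 with SE 0.39 (limma, adjusted p = 0.00261), on 5 to 14 reads per vehicle library. It too may be listed only through its LPS signal. The site 29.9 kb into the gene (78840941 to 78841941) had 25.2, 17.1 and 14.4 in vehicle and 50.2, 43.5 and 62.3 in LPS, a log2 fold of 1.43 with SE 0.24 (limma, adjusted p = 2.06e-05). Near the end of the gene, the site 38.2 kb from the start (78849236 to 78850236) had 17.2, 14.5 and 15.6 in vehicle and 38.2, 40.1 and 50.5 in LPS, a log2 fold of 1.38 with SE 0.26 (limma, adjusted p = 1.05e-04). At all 3 the LPS libraries lay above the vehicle libraries. The sites 29.9 and 38.2 kb from the start were also low in vehicle, at the 4.07th and 1.52th percentiles of vehicle means. They may likewise be listed only through their LPS signal. The sites 6.21 and 32.0 kb into the gene did not pass, with log2 folds of 0.60 (95% interval -0.05 to 1.25) and 0.46 (-0.08 to 1.01). Both intervals hold no change as well as rises up to their upper bounds.

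Past the end of Nos2, 2 of 4 sites rose. Between the genes, the site 40.3 kb from the Nos2 start (78851316 to 78852316) had 14.9, 16.2 and 14.4 in vehicle and 15.3, 29.9 and 54.1 in LPS. The LPS libraries were spread over the whole range, from the vehicle level to the highest value, and the site did not pass (log2 fold 0.90, limma adjusted p = 0.0543). It passed with the replicate number of the labels as a block (limma adjusted p = 0.0244). Inside Lgals9, the site 11.3 kb from its start (78863903 to 78864903) had 25.2, 29.0 and 31.3 in vehicle and 64.4, 76.8 and 76.7 in LPS, a log2 fold of 1.32 with SE 0.19 (limma, adjusted p = 1.31e-06). The one 4.23 kb from that start did not pass, with a log2 fold of 0.39 (95% interval -0.13 to 0.91).

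The Lgals9 start was the most strongly bound site of the locus. It had 119, 96.4 and 120 in vehicle and 164, 133 and 177 in LPS, and its log2 fold was 0.49 with SE 0.15 (limma, adjusted p = 0.0104). The groups did not overlap, but the call was lost without vehicle replicate 2 or LPS replicate 3, with log2 folds of 0.39 and 0.40. Just outside the window, the next site upstream, 44.5 kb from the Nos2 start, had means of 21.4 ± 7.57 in vehicle and 59.9 ± 13.5 in LPS. The next one downstream, 96.8 kb away, had 33.5 ± 2.07 and 41.0 ± 1.13 (SD, n = 3 each).

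**Figure D2:**
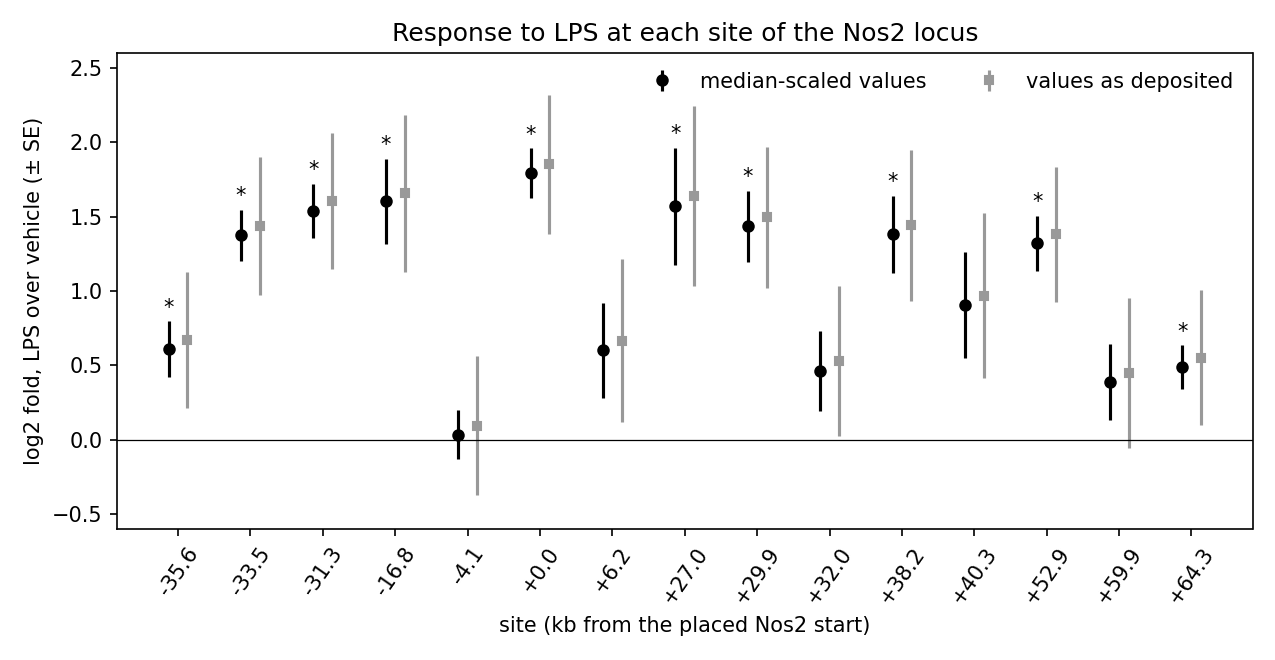
Log2 fold of LPS over vehicle with its SE (y axis) at each site of the locus, named by its distance in kb from the placed Nos2 start (x axis), on median-scaled values (black) and on the values as deposited (grey). Stars mark limma adjusted p under 0.05 on median-scaled values (10 of 15 sites). The folds are nearly the same on both scales and the SE is larger on the deposited one, 0.47 against 0.17 at the Nos2 start.

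The call at most of these sites depended on the scaling. On the values as deposited, where 1.89% of all sites were called higher and 0.0482% lower, 2 sites of the locus were called, the Nos2 start (log2 fold 1.85, limma adjusted p = 0.00817) and the site 31.3 kb upstream (1.60, limma adjusted p = 0.0295). Of all called sites 97.5% were higher on the deposited values and 54.4% on the median-scaled ones. In the authors' deposited table, 8 of the 15 sites had an FDR under 0.05, all 8 of them higher in LPS, where 4.01% of all sites were higher. These are the 8 sites with a log2 fold above 1 and a call on median-scaled values, and they kept that call without each single library. In the authors' deposited table their log2 folds were 0.98 to 1.36, with 1.36 at the Nos2 start (FDR 0.00258).

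Whether sites of the locus responded differently from the Nos2 start was tested on the log2 ratio of each site to it within each library, in which the scaling cancels. At 7 of 14 sites the ratio was lower in all LPS libraries than in all vehicle libraries, and at the other 7 the groups overlapped. The log2 fold of the Nos2 start lay at the 99.1th percentile of all sites, so a lower ratio to it would be common anywhere. The share of all sites with such a ratio was not computed, so the count does not set sites of the locus apart. The site 4.09 kb upstream differed the most. Its mean log2 ratio to the Nos2 start was 0.81 in vehicle and -0.98 in LPS, a difference of -1.79 (two-sided exact permutation p = 0.1, the smallest possible, and 0.2 after Benjamini-Hochberg adjustment over the 14 sites). The Lgals9 start came down from 1.61 to 0.28, a difference of -1.33 (exact permutation p = 0.1, adjusted 0.2). The other 5 such sites, among them both sites inside Nos2 and the 1 inside Lgals9 that were not called, differed by -1.42 to -0.47. The ratio of the sites 31.3 and 16.8 kb upstream and 27.0 kb into the gene moved by -0.25, -0.14 and -0.15 (exact permutation p = 0.5, 0.6 and 0.9). This exact test cannot pass 0.05 with 3 against 3 libraries, and the ratios were tested in no other way. Without vehicle replicate 3 the number of sites with a lower ratio in all LPS libraries was 12.

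**Figure D3:**
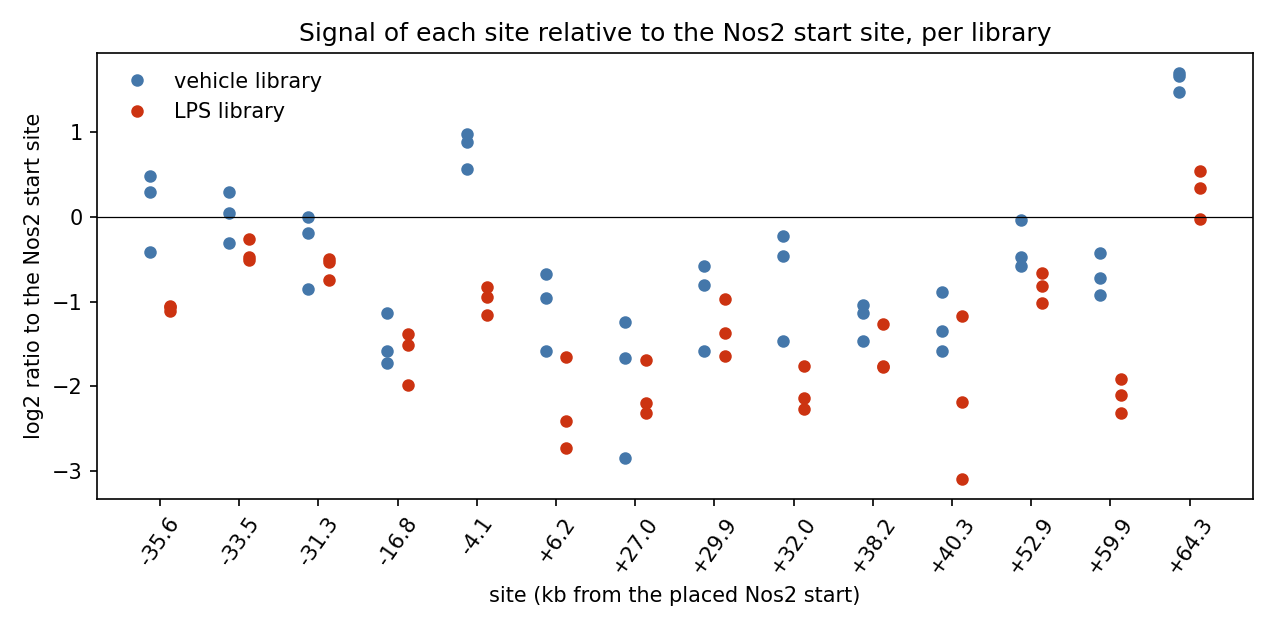
Log2 ratio of each of the other 14 sites to the Nos2 start site within each library (y axis), by site (x axis, kb from the placed Nos2 start). Points are libraries, 3 per group, and 0 means equal signal. At 7 sites all LPS libraries lie below all vehicle libraries, the site 4.09 kb upstream most of all, and in vehicle that site and the Lgals9 start lie above 0 in every library.

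Some genes that supply the synthase with its substrate and cofactor had sites that rose at their own starts. Of 25 genes of nitric oxide and arginine metabolism, 15 could be placed from the table, and the other 10, among them Arg1, Nos1 and Nos3, were not analysed here. Within 10 kb of the placed starts lay 36 sites, of which 5 were called higher and 4 lower, against 16.1% and 13.5% of all sites, and their median log2 fold was -0.05, against -0.02 over all sites. Of the 15 genes 4 had a higher site, 3 a lower one and the other 8 neither. The share of all placed genes with a called site within 10 kb was not computed. Slc7a2, a cationic amino acid transporter that brings arginine into the cell, had 32.0, 29.9 and 32.5 in vehicle and 89.5, 68.3 and 86.6 in LPS at its start (log2 fold 1.34, SE 0.18, limma adjusted p = 6.05e-07). Gch1, whose enzyme GTP cyclohydrolase 1 starts tetrahydrobiopterin synthesis, had 93.9, 94.7 and 105 in vehicle and 217, 196 and 190 in LPS (log2 fold 1.03, SE 0.14, limma adjusted p = 4.32e-07). At both the groups were far apart. The sites at the starts of Ass1, which encodes argininosuccinate synthase of arginine resynthesis, and of Slc7a1, another arginine transporter, rose by log2 folds of 0.85 and 0.57 (limma adjusted p = 4.87e-04 and 0.00193). These 4 kept their calls without each single library.

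The 4 lower sites were near Nostrin, Ddah2 and Pts. A site 6.93 kb from the start of Nostrin, which encodes a protein that binds the endothelial synthase, had 108, 115 and 125 in vehicle and 43.7, 76.8 and 67.7 in LPS (log2 fold -0.91, limma adjusted p = 1.56e-04). The site at the Nostrin start fell by less, with a log2 fold of -0.39 (limma adjusted p = 0.0397). One 4.08 kb from the start of Ddah2, of the dimethylarginine dimethylaminohydrolase family, had a log2 fold of -1.11 (limma adjusted p = 0.00558). One near Pts, of tetrahydrobiopterin synthesis, had -0.55 (limma adjusted p = 0.0486), while the site at the Pts start did not pass (0.23). Of the 6 fits that left out 1 library, 5 lost the call at the Nostrin start, 4 that near Pts and 1 that near Ddah2, and the site 6.93 kb from Nostrin lost none. Without LPS replicate 2 the number of genes with a lower site was 1. On the values as deposited none of the 15 genes had a called site by limma, with log2 folds of 1.40 at Slc7a2 and 1.10 at Gch1 (limma adjusted p = 0.0882 and 0.276).

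**Figure D4:**
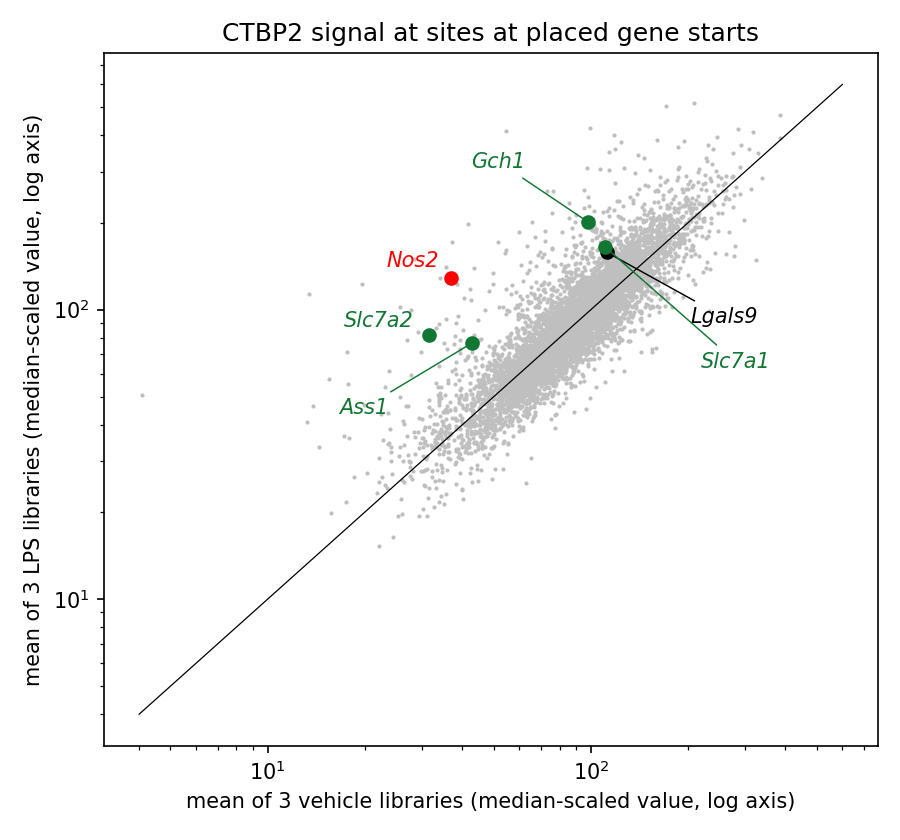
Mean median-scaled CTBP2 signal of 3 vehicle libraries (x axis, log) and of 3 LPS libraries (y axis, log) at the 6580 sites within 1 kb of a placed gene start (grey), with Nos2 in red, Lgals9 in black and 4 genes of arginine and tetrahydrobiopterin supply in green. The line marks equal signal. Nos2 (37.0 and 129) and Slc7a2 (31.5 and 81.5) lie well above the line at its lower part.

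Of 28 genes of the signalling that induces Nos2, 23 could be placed, and 14 had a higher site within 10 kb of the start, 5 a lower one and 2 of these both. Of their 70 sites 18 were called higher and 5 lower, where 16.1% and 13.5% of all sites were, with a median log2 fold of 0.19 against -0.02 over all sites. The share of all placed genes with such a site was not computed, so the counts of genes have no background beside them. At the start of Irf1, a transcription factor of the interferon response that binds the Nos2 promoter, the signal was 144, 148 and 188 in vehicle and 385, 402 and 372 in LPS (log2 fold 1.28, SE 0.13, limma adjusted p = 1.80e-09). The site at the start of Rel, an NF-kB subunit, had a log2 fold of 0.73 (limma adjusted p = 2.30e-05). A site 4.68 kb from the start of Tyk2, a Janus kinase of interferon receptors, had 30.9, 41.8 and 32.5 in vehicle and 255, 265 and 257 in LPS (log2 fold 2.86, limma adjusted p = 2.82e-15), the largest of the list. Sites near Ifnar2, Hif1a and Nfkb2 rose by 1.75, 1.41 and 1.43, and that of Nfkb2 lay nearer to the start of another gene. The genes with sites in both directions were Ifnar2, a subunit of the type I interferon receptor, and Tlr4, the LPS receptor. The higher site of Ifnar2 lay 9.52 kb from its start, while another, at -5.37 kb and with more signal, fell from 173 to 101 (log2 fold -0.77, limma adjusted p = 4.77e-05), and the start itself did not pass (log2 fold 0.37, limma adjusted p = 0.0705). At the start of Tlr4 the signal was lower in LPS, at 153 against 216 (log2 fold -0.50, limma adjusted p = 0.00385), and at a weaker site 9.83 kb away it was higher, at 35.3 against 19.6 (log2 fold 0.78, limma adjusted p = 0.027). That last call was lost in 2 of the 6 fits that left out 1 library. On the values as deposited, 3 of the 23 genes had a higher site, Tyk2, Ifnar2 and Nfkb2, and 0 a lower one, also with log2 folds of 1.34 at Irf1 and 0.79 at Rel.

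The gene starts most like that of Nos2 were those of AW112010, Cst7, Tgm2, Tnip1 and Iqgap3. Likeness was the root mean square difference in log2 value over the 6 libraries, among 6579 other gene start sites, and it was 0.18, 0.22, 0.29, 0.29 and 0.33 for these 5. The start of AW112010 had 41.2, 30.7 and 34.9 in vehicle and 150, 132 and 139 in LPS. They were picked for this likeness, so their values are a description.

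As a check of the labelled cell type, 6 of 10 macrophage marker genes had a site within 1 kb of the placed start, against 1 of 7 neutrophil markers, 0 of 7 lymphocyte markers and 0 of 5 fibroblast markers. Of these 8, 3, 1 and 0 genes could be placed, so the table cannot show where the others lack CTBP2. Of the 26 sites within 10 kb of macrophage markers 1 was called higher and 4 lower, against 16.1% and 13.5% of all sites, and the neutrophil marker Csf3r had a higher one (log2 fold 0.92). Their part in the results was not tested.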

How the data were processed

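CTBP2 was measured in 3 vehicle and 3 LPS libraries. The chromatin was crosslinked with DSG and formaldehyde, per the labels' protocols. Software listed in the submitters' processing notes was BWA 0.7.17, Picard 3.2.0, SAMtools 1.9, MACS3 3.0.0a5, R 4.4.1 and DiffBind 3.16, and the builds mm39, GRCm39 and mm10 are listed without their steps. The sources used here do not say whether peaks were called in single or pooled libraries. The deposited table gives a normalised signal per site and library, log2 concentrations and folds, p-values and FDR by the authors. Each signal column moves in steps of 1 size (all values up to 300 steps are whole to within 0.1), and a step is taken as 1 read. The sources used here do not say what set its size.

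Columns were scaled by their medians and tested with limma 3.58.1 (trend and robust) in R 4.3.3, with no covariates, all 6 libraries and a pseudocount of 1. The script was tested on simulated data. The log2 ratios used no pseudocount. Gene starts were placed by a path along each chromosome (steps of 250 bp, up to 1000 kb, penalty 12, assumed share 0.35, at least 5 hits per stretch). It placed 8383 of 8393 genes in 119 stretches, and when alternate genes were withheld from the fit, 70.2% of the 8300 withheld starts had a site within 500 bp, against 9.66% with no shift. A placed start is no closer than that step allows, and only genes in the table can be named. Values in every library are given for the Nos2 start, the called sites and the highest site, and the genes named from a list are those whose sites had its smallest adjusted p, at most 6. Some further sites and genes were described after their values were seen. The locus, gene lists, motifs and rules were chosen with earlier results of these data known.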

Additional observations from a re-analysis of the deposited data

How the results depend on the processing

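On the values as deposited, 1178 sites were called higher over the whole table and 30 lower, against 10034 and 8409 on median-scaled values. There 2 sites of the locus were called higher, against 10. Of the nitric oxide and arginine genes 0 had a higher and 0 a lower site, against 4 and 3, and of the signalling genes 3 had a higher and 0 a lower one, against 14 and 5. At an adjusted p under 0.01 the lower sites of the table numbered 4699. Without each library in turn, the higher sites of the table numbered 7691 to 10083 and the lower ones 6031 to 7914, those of the locus 8 to 11 higher and 0 lower, the nitric oxide and arginine genes 4 to 5 higher and 1 to 3 lower, the signalling genes 11 to 14 higher and 4 to 5 lower, and the sites with a lower ratio to the Nos2 start 7 to 12. The log2 difference of the summed signal was 0.93 to 1.06 without each library and 1.05 on the deposited values. The direction of the fold at the 10 called sites held under every alternative run. Quantile normalised values, the other pseudocounts and the filter on low sites changed none of the 10 calls.

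With the replicate number as a block, 11692 sites of the table were called higher and 10398 lower, and 11 of the locus higher. Whether the numbers pair the samples was left undecided. The deviations from the group means correlated at 0.11, 0.04 and 0.21 for replicates 1, 2 and 3. Between libraries of different numbers the correlations ran from -0.21 to 0.15, and not every library correlated best with its own number. The planned count test on reads was not run: in most columns the smallest value is more than 1 step, and the reading of a step as 1 read was not accepted as recovered counts. Alternatives for the gene lists and for the ratio to the Nos2 start were chosen after seeing the data. At 5 to 30 reads per vehicle library, as at the low sites of the locus, the intervals are wide. The smallest detectable change was not computed.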
